A study of Mus musculus with 8 samples.

Results

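The 8 genes described here are Eomes, Neurod1, Neurod2, Prox1, Dcx, Sox4, Sox11 and Igfbpl1, which are read in the hippocampus as transcription factors and neuroblast genes of the neurogenic lineage. They were chosen by gene symbol, and each symbol matched 1 of the 55487 gene identifiers that both hippocampal matrices list. The series holds 8 samples in all, and 2 of them are single-cell RNA libraries of the mouse hippocampus. The library called DTRneg came from Foxp3-DTR- mice and the library called DTRpos from Foxp3-DTR+ mice, and both genotypes received diphtheria toxin. Foxp3-DTR places the diphtheria toxin receptor under the Foxp3 gene of regulatory T cells, so the toxin is aimed at those cells in DTRpos mice. Each library pooled 2 mice, and perfused tissue was sorted for live CD45- Thy1- cells, a gate that removes leukocytes and cells with surface Thy1, which many mature neurons carry. The age and the toxin schedule of the mice are not given in the sources used here. The question this pair of libraries addresses is what loss of regulatory T cells does to hippocampal cells.

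There was 1 library per genotype. Differences between the libraries therefore have no replicate check, no p-value is given, and every interval is an exact 95% interval for counting error only. The interval does not cover variation between cells, mice, dissections or sorts.

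DTRneg held 8220 barcodes with 53484704 unique molecular identifiers (UMIs, which count captured molecules), and DTRpos held 6548 barcodes with 35814655. After filters on detected genes and mitochondrial share and removal of called doublets, 6863 and 5691 cells were left, with medians of 6003 and 4509 UMIs per cell. Both libraries shared 18 barcodes, of which 6 lay in the lineage classes below. Foxp3 had 0 UMIs in both libraries, so the sorted cells hold no check of the genotype. The label calls the cells neurons and glia. The largest class in both libraries was mature oligodendrocyte-like, with 3115 cells in DTRneg and 2261 in DTRpos.

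In the adult dentate gyrus, radial glia-like stem cells give rise to intermediate progenitors, which produce neuroblasts that mature into granule neurons. Eomes (Tbr2) is the T-box factor of the intermediate progenitors. Neurod1 and Neurod2 are basic helix-loop-helix factors of neuronal differentiation, and Prox1 is the homeobox factor of granule neuron identity. Sox4 and Sox11 are SoxC factors of immature neurons, Dcx (doublecortin) is a microtubule-binding protein of migrating neuroblasts, and Igfbpl1 is an insulin-like growth factor binding protein-like gene that is abundant in neuroblasts.

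Basic helix-loop-helix factors bind the E-box, whose letters are CANNTG. The windows upstream of Eomes, Neurod1 and Neurod2 are shown because these 3 genes had different orders along the lineage in the data below. Each runs 5′ to 3′ on the gene's strand, ends before the gene's start in both RefSeq and GENCODE and is credited to RefSeq on GRCm38.p6. Capitals mark each CANNTG. The Eomes window is chr9:118477939-118478188 on the plus strand, the Neurod1 window is chr2:79456752-79456886 on the minus strand, and the Neurod2 window is chr11:98329649-98329895 on the minus strand.
Eomes: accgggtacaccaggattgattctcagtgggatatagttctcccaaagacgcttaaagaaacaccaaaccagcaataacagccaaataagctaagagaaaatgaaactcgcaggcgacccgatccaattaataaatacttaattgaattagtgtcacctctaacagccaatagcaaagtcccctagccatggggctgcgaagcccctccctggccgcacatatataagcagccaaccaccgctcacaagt
Neurod1: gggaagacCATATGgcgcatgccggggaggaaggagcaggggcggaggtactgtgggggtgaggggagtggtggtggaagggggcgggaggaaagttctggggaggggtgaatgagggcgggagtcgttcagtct
Neurod2: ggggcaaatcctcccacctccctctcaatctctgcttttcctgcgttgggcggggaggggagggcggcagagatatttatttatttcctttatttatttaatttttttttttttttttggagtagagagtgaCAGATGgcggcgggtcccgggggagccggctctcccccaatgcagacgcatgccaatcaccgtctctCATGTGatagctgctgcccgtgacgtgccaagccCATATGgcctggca
The Eomes window held 0 CANNTG, the Neurod1 window 1 and the Neurod2 window 3, and 1 of those 3 reads CAGATG. The letters CANNTG read the same on both strands, while CAGATG was searched on both, and every CAGATG is also a CANNTG. Over the full 250 bases, 66.2% of 32851 RefSeq promoters held a CANNTG and 14.4% held CAGATG, so the letters are common. A match is a description of the sequence and not a bound site. RefSeq entries were found for 7 of the 8 genes, Igfbpl1 being the one that was not matched.

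The 8 genes lie apart in the genome. In GRCm38 coordinates (GENCODE M21) they are Eomes at chr9:118478212-118486132, Neurod1 at chr2:79452521-79456751, Neurod2 at chr11:98325415-98329648 and Prox1 at chr1:190118035-190170714. Dcx is at chrX:143855842-143933311, Sox4 at chr13:28948919-28953713, Sox11 at chr12:27334264-27342574 and Igfbpl1 at chr4:45809468-45826923. Eomes is on the plus strand and the other 7 are on the minus strand. Neurod1 overlaps Cerkl on its own strand, so reads from that shared stretch are less certain. Transcripts are also annotated on the strand opposite Eomes (Gm33460), Neurod1 (Gm26755), Prox1 (Gm28172 and Prox1os) and Sox4 (Gm26735). Their part in the counts was not tested.

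Cells were clustered with the 8 genes left out of the variable genes, so that the classes were not built on them directly. Genes that vary together with them still took part, and the levels by class are a description with no test. The neural stem cell-like class held 103 cells in DTRneg and 67 in DTRpos. Its marker Hopx was detected in every cell, and Riiad1 was detected in 44.7% and 50.7%. Hopx was also detected in 84.2% and 74.0% of astrocyte-like cells, and Riiad1 in 3.50% and 4.64% of them. The precursor-like class, named by oligodendrocyte precursor markers, held 741 and 963 cells, with Pdgfra in 95.3% and 93.6%. The neuroblast-like class held 183 and 152 cells, with Stmn2 in 60.1% and 59.2%.

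The labels of these classes were checked against markers of other cells. In neuroblast-like cells Thy1 was 16.6 and 17.9 CPM (the usual scaling of a gene's UMIs by all UMIs summed over the class, which allows libraries and classes of unequal depth to be set side by side), and Ptprc, the gene of CD45, had 0 UMIs in both libraries. Gad1, an enzyme of GABA synthesis, also had 0 UMIs there, but other genes linked to GABAergic cells were found. Gad2 had 5 UMIs and 1 UMI, Dlx1 had 7 and 23, Dlx2 had 4 and 6, and Meis2 had 114 and 33. Tubb3, a tubulin of neurons, stood at 1065 and 974 CPM, and Rbfox3, the gene of NeuN, at 181 and 202 CPM. Mature oligodendrocyte markers summed to 1351 and 891 CPM in the neuroblast-like class with 1 of 7 at 0. Astrocyte markers summed to 724.5 and 745.6 CPM there, with 0 and 2 of 7 at 0. The part of both in the results was not tested. The stem class carried 12210 and 12290 CPM of astrocyte markers with 0 of 7 at 0, which adult neural stem cells share. Oligodendrocyte precursor markers summed to 3972 and 4151 CPM there, above the stem marker list itself at 3392 and 3025, with 2 of 6 at 0 in each library and Pdgfra at 0 and 3.68 CPM. Mature oligodendrocyte markers summed to 2355 and 2300 CPM with 1 of 7 at 0. Their part in the stem values was not tested. The stem cell gene Rhcg had 13 and 16 UMIs. In precursor-like cells the neuroblast markers without Igfbpl1 summed to 525.7 and 540.7 CPM, with 0 of 7 at 0. Differentiating oligodendrocyte markers summed to 1047 and 1005 CPM there, mature oligodendrocyte markers to 1001 and 930.9, and astrocyte markers to 865.9 and 935.9. Choroid plexus markers summed to 328 CPM in DTRneg and 29.67 in DTRpos. Their part in the precursor-like values was not tested.

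Eomes was concentrated in the neuroblast-like class and its cycling relatives. Neuroblast-like cells held 505 Eomes UMIs in DTRneg, or 399 CPM (365 to 436), and 321 in DTRpos, or 359 CPM (321 to 400). Cycling progenitor-like cells followed at 176 and 150 CPM. The intervals of these classes did not overlap each other or those of any other class in either library. No Eomes UMI was found in the neural stem cell-like class of either library, where the exact interval reaches up to 7.33 and 13.57 CPM. Neuroblast-like cells were therefore at least 67.0-fold higher than stem cells in DTRneg and at least 32.5-fold higher in DTRpos, taking 3 UMIs per class as the floor. In precursor-like cells Eomes had 1 UMI in DTRneg and 8 in DTRpos.

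Neurod1 followed the same class order. It reached 985 CPM (931 to 1041) in DTRneg neuroblast-like cells and 964 CPM (900 to 1030) in those of DTRpos. Cycling progenitor-like cells held 214 and 115 CPM. Unlike Eomes, a few Neurod1 UMIs lay in the stem class, 4 in DTRneg and 3 in DTRpos. The neuroblast-like level was 124-fold (48.3 to 455) and 87.3-fold (29.8 to 424) that of stem cells.

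Neurod2 was the sparsest of the 8 by detection. It had 61 UMIs in DTRneg neuroblast-like cells, or 48.2 CPM (36.9 to 61.97), and 32 in DTRpos, or 35.8 CPM (24.5 to 50.5). It was found in 18.0% and 15.1% of those cells. Stem and precursor-like classes had no Neurod2 UMI in either library. Its neuroblast-like level was at least 61.7-fold and at least 49.8-fold higher than in precursor-like cells, and against the smaller stem class the bound was only 8.09-fold and 3.24-fold. In cycling progenitor-like cells it had 0 UMIs in DTRneg and 1 in DTRpos.

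Prox1 was also high outside the neuronal lineage. It stood at 244 CPM (218 to 273) and 260 CPM (228 to 296) in neuroblast-like cells. Mature oligodendrocyte-like cells held nearly as much, 181 CPM in DTRneg and 218 in DTRpos, with Prox1 detected in 66.9% and 66.1% of cells. The neuroblast-like level was 1.35-fold (1.20 to 1.51) and 1.19-fold (1.04 to 1.36) that of mature oligodendrocyte-like cells. Prox1 is also known from the oligodendrocyte lineage. The next class, cycling progenitor-like at 161 CPM in DTRneg and microglia-like at 186 CPM in DTRpos, did not differ from mature oligodendrocyte-like beyond its interval. Neural stem cell-like cells held 93.4 and 99.4 CPM and precursor-like cells 44.3 and 48.8, against 3.75 and 0 CPM in endothelial-like cells. Across DTRneg and DTRpos, 39.8% and 32.8% of stem cells carried a Prox1 UMI at medians of 4455 and 3762 UMIs per cell. With every cell thinned at random to 2000 UMIs, to set depth equal, the shares were 18.6% and 17.8% in stem cells, 33.2% and 36.9% in neuroblast-like cells, and 27.9% and 31.5% in mature oligodendrocyte-like cells. Detection of Prox1 was thus about as frequent in mature oligodendrocyte-like cells as in neuroblast-like cells.

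Dcx separated stem cells from the other lineage classes. It had 0 UMIs in DTRneg stem cells and 1 in those of DTRpos, against 393 and 380 CPM in neuroblast-like cells. Precursor-like cells carried a clear lower level, 75.3 CPM (289 UMIs) in DTRneg and 79.7 CPM (333 UMIs) in DTRpos. Dcx was detected in 30.4% and 27.8% of precursor-like cells at medians of 5148 and 4262 UMIs. Endothelial-like cells, at medians of 1944.5 and 1598 UMIs, had no Dcx UMI. Mature oligodendrocyte-like cells were deeper, at medians of 7602 and 6211 UMIs, and held 0.33 and 0.52 CPM. The precursor-like level was therefore above the level seen in cells that should lack the gene. Cycling progenitor-like cells held 117 and 54.9 CPM of Dcx, with intervals that overlapped those of precursor-like cells. The neuroblast-like level was 5.22-fold (4.51 to 6.06) and 4.77-fold (4.09 to 5.57) the precursor-like level.

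Sox4 and Sox11 were high in neuroblast-like cells and reached further outside them. Sox4 stood at 2245 and 2241 CPM in neuroblast-like cells, 750 and 629 in cycling progenitor-like cells, 322 and 363 in precursor-like cells, and 256 and 195 in stem cells. It was also found in differentiating oligodendrocyte-like cells at 357 and 322 CPM. In mature oligodendrocyte-like cells it was 10.3 and 9.08 CPM. Sox4 was thus shared by immature classes of both the neuronal and the oligodendrocyte branch, but was not confined to them. Pericyte-like cells held 103 and 116 CPM, endothelial-like cells 69.3 and 113, and astrocyte-like cells 45.2 and 65.2. In DTRpos the intervals of stem and pericyte-like cells overlapped.

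Sox11 was 2763 and 2362 CPM in neuroblast-like cells and 1029 and 1163 CPM in cycling progenitor-like cells. Precursor-like cells held 152 and 157 CPM and stem cells 81.5 and 73.6. The neuroblast-like level was 33.9-fold (24.9 to 47.3) and 32.1-fold (20.7 to 52.7) the stem level, against 8.76-fold (7.34 to 10.53) and 11.5-fold (8.75 to 15.4) for Sox4. For Sox11 the intervals of this fold lay above those of Sox4 in both libraries.

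Igfbpl1 was close to absent from the stem class. It reached 2858 CPM (3614 UMIs) in DTRneg neuroblast-like cells and 2877 CPM (2574 UMIs) in those of DTRpos. Stem cells held 1 UMI in DTRneg and 0 in DTRpos, and precursor-like cells held 3 and 24. Cycling progenitor-like cells stood between, at 1031 and 714 CPM. In mature oligodendrocyte-like cells it was 1.19 and 0.464 CPM, so the neuroblast-like level was 2411-fold (1738 to 3448) and 6196-fold (3259 to 13570) higher.

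**Figure D1:**
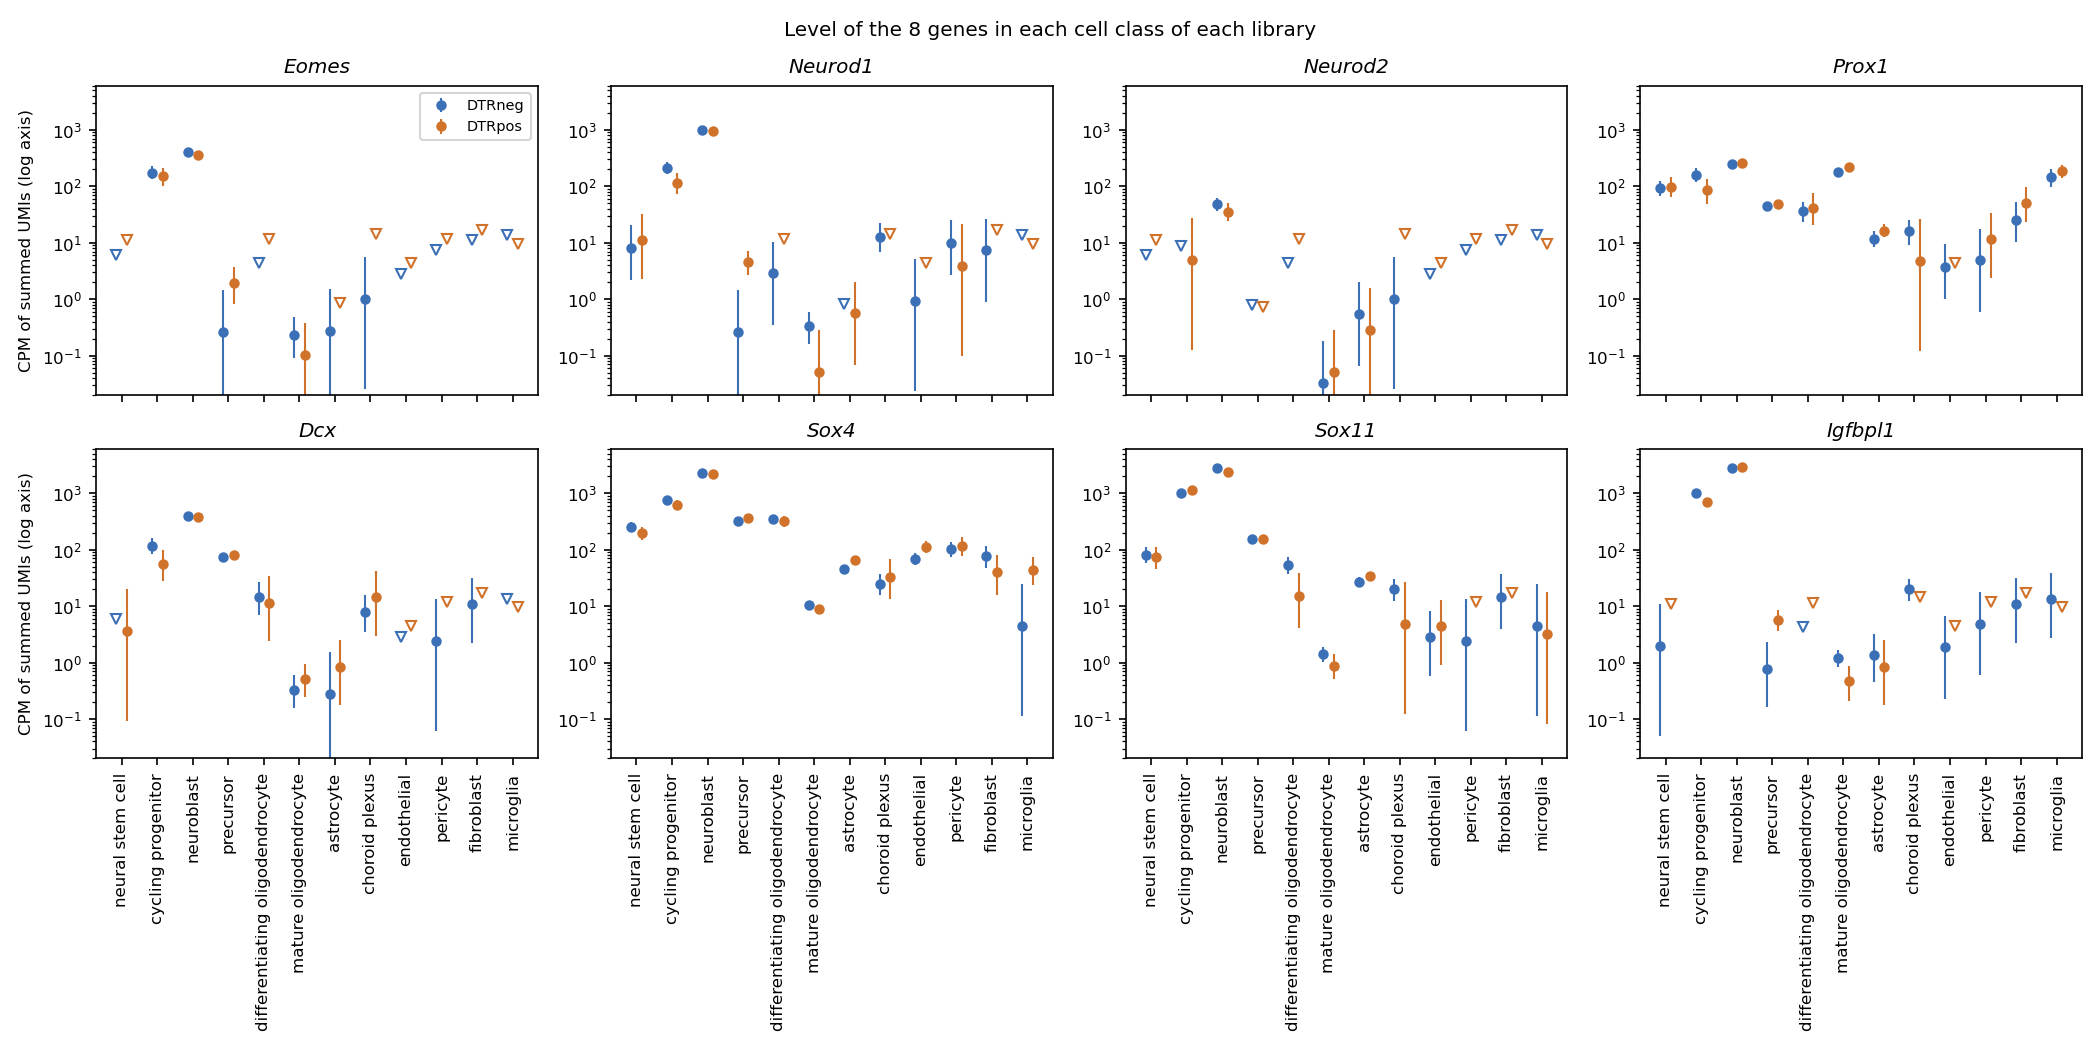
Level of each of the 8 genes by cell class (x axis) as CPM of summed UMIs on a log axis (y axis), with DTRneg and DTRpos as separate points and bars for the exact 95% counting interval; open triangles mark the 3-UMI floor where no UMI was found. Igfbpl1, Eomes and Neurod1 are high in neuroblast-like and cycling classes and near 0 in stem cells, while Prox1 in mature oligodendrocyte-like cells (181 and 218 CPM) is close to its neuroblast-like level (244 and 260 CPM).

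Within the neuroblast-like class most cells expressed several of the 8 genes. After thinning, with averages over 50 random draws, 176 cells of DTRneg and 149 of DTRpos were deep enough to keep. Sox4 was detected in 93.8% and 91.0% of them, Sox11 in 92.6% and 88.6%, and Igfbpl1 in 90.6% and 87.0%. Neurod1 was detected in 65.5% and 63.2%, Dcx in 47.6% and 49.2%, Eomes in 45.7% and 42.2%, and Neurod2 in 8.12% and 7.48%. Without thinning, the Eomes share was 73.2% and 66.4% and the Neurod1 share 79.2% and 75.0%, so these shares depend on depth.

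The median thinned neuroblast-like cell carried 5 of the 8 genes in both libraries. At least 5 were found in 64.3% of DTRneg and 64.1% of DTRpos cells, and none in 1.47% and 4.46%. Precursor-like cells had a median of 1, with none in 33.9% and 31.1%. Stem cells had a median of 1 in DTRneg and 0 in DTRpos, with none in 46.0% and 50.7%. No thinned stem cell of either library reached 5, and among precursor-like cells only 0.105% of DTRpos did.

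**Figure D2:**
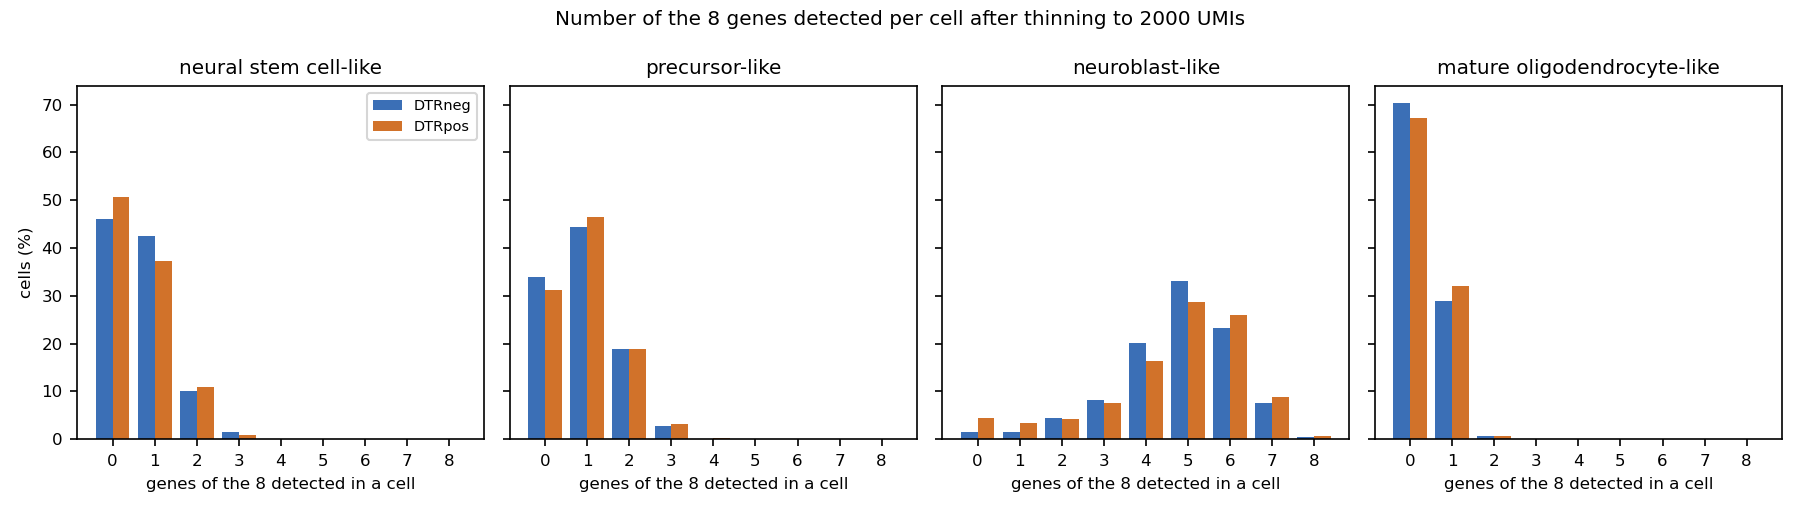
Number of the 8 genes detected in a cell thinned to 2000 UMIs (x axis) against the percentage of cells (y axis), by class, with 1 series per library. Neuroblast-like cells have a median of 5 genes in both libraries, while precursor-like cells have a median of 1.

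Precursor-like cells held Sox4, Sox11, Dcx and Prox1, and only traces of Eomes, Neurod1 and Igfbpl1. After thinning, Sox4 was found in 45.4% and 48.7% of them, Sox11 in 23.9% and 24.1%, Dcx in 13.0% and 14.1%, and Prox1 in 8.30% and 7.6%. Eomes, Neurod1 and Igfbpl1 were each in less than 1% there, the highest being Igfbpl1 in DTRpos at 0.399%. Precursor-like cells with Dcx carried Sox11 about as often as those without, 25.3% against 23.7% in DTRneg and 25.5% against 23.8% in DTRpos. Those with Sox4 carried Sox11 in 24.9% against 23.1% of those without in DTRneg, and in 23.6% against 24.5% in DTRpos. Detection of 1 of these genes in a precursor-like cell said little about the others at this depth.

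Stem, cycling and neuroblast-like cells were then clustered again on their own, again without the 8 genes, and the groups were ordered by their summed Stmn2 and Tubb3, genes of young neurons. This grouping was made after the data had been seen, and the values are a description. Along the order, 2 stem groups (52 and 116 cells) were followed by a cycling group without Pdgfra (24 cells), an early group of mostly neuroblast-like cells (89 cells, 75 of them neuroblast-like and 14 cycling), an intermediate group (123 cells) and a group rich in calretinin, Calb2 (130 cells). The other cells were 36 cycling cells with Pdgfra and 13 mixed cells with a median of 10128 UMIs.

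Eomes was highest at the start of the neuroblast groups and lower at the end. It stood at 546 CPM in DTRneg and 434 in DTRpos in the early group, at 438 and 388 in the intermediate group, and at 272 and 249 in the Calb2-rich group. Over both libraries the early level was 494 CPM (443 to 549) and the Calb2-rich level 263 CPM (228 to 301). The order was the same in both libraries.

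Neurod1 ran the other way. It was 362 and 147 CPM in the early group, 950 and 986 in the intermediate group, and 1491 and 1771 in the Calb2-rich group. Neurod2 was later still, with 0 UMIs and 1 UMI in the early group, 24.2 and 33.4 CPM in the intermediate group, and 98.2 and 73.1 CPM in the Calb2-rich group. In the cycling group without Pdgfra, Eomes stood at 339 CPM and Neurod1 at 304 over both libraries, and Neurod2 had no UMI. Eomes and Neurod1 were thus present in groups where Neurod2 was not detectable or at 1 UMI.

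Dcx had the same order as Neurod1, from 137 and 159 CPM in the early group to 455 and 431 in the intermediate and 545 and 538 in the Calb2-rich group. Igfbpl1 and Sox4 were already high in the cycling and early groups. Igfbpl1 stood at 1572 CPM over both libraries in the early group, 3403 in the intermediate and 3614 in the Calb2-rich group. Sox4 differed less, at 1919, 2374 and 2409 CPM, and its intervals in the later groups overlapped. Sox11 was 1739, 2929 and 3113 CPM.

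Of the 6 ordered groups, Prox1 was lowest in the stem groups and highest in the Calb2-rich group. It was 232 CPM (198 to 271) over both libraries in the early group, 210 CPM (178 to 247) in the intermediate group and 303 CPM (265 to 344) in the Calb2-rich group. The stem groups held 87.0 and 102 CPM. The intervals of the early and intermediate groups overlapped, and that of the Calb2-rich group lay above the intermediate one. Cycling cells divided by branch. Those without Pdgfra held 322 and 389 CPM of Eomes in DTRneg and DTRpos, 356 and 156 of Neurod1, and 1787 and 700 of Igfbpl1, while the 36 cycling cells with Pdgfra (1027 CPM) held no Eomes, Neurod1 or Neurod2 UMI. Sox11 was present in both, at 1453 and 368 CPM.

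**Figure D3:**
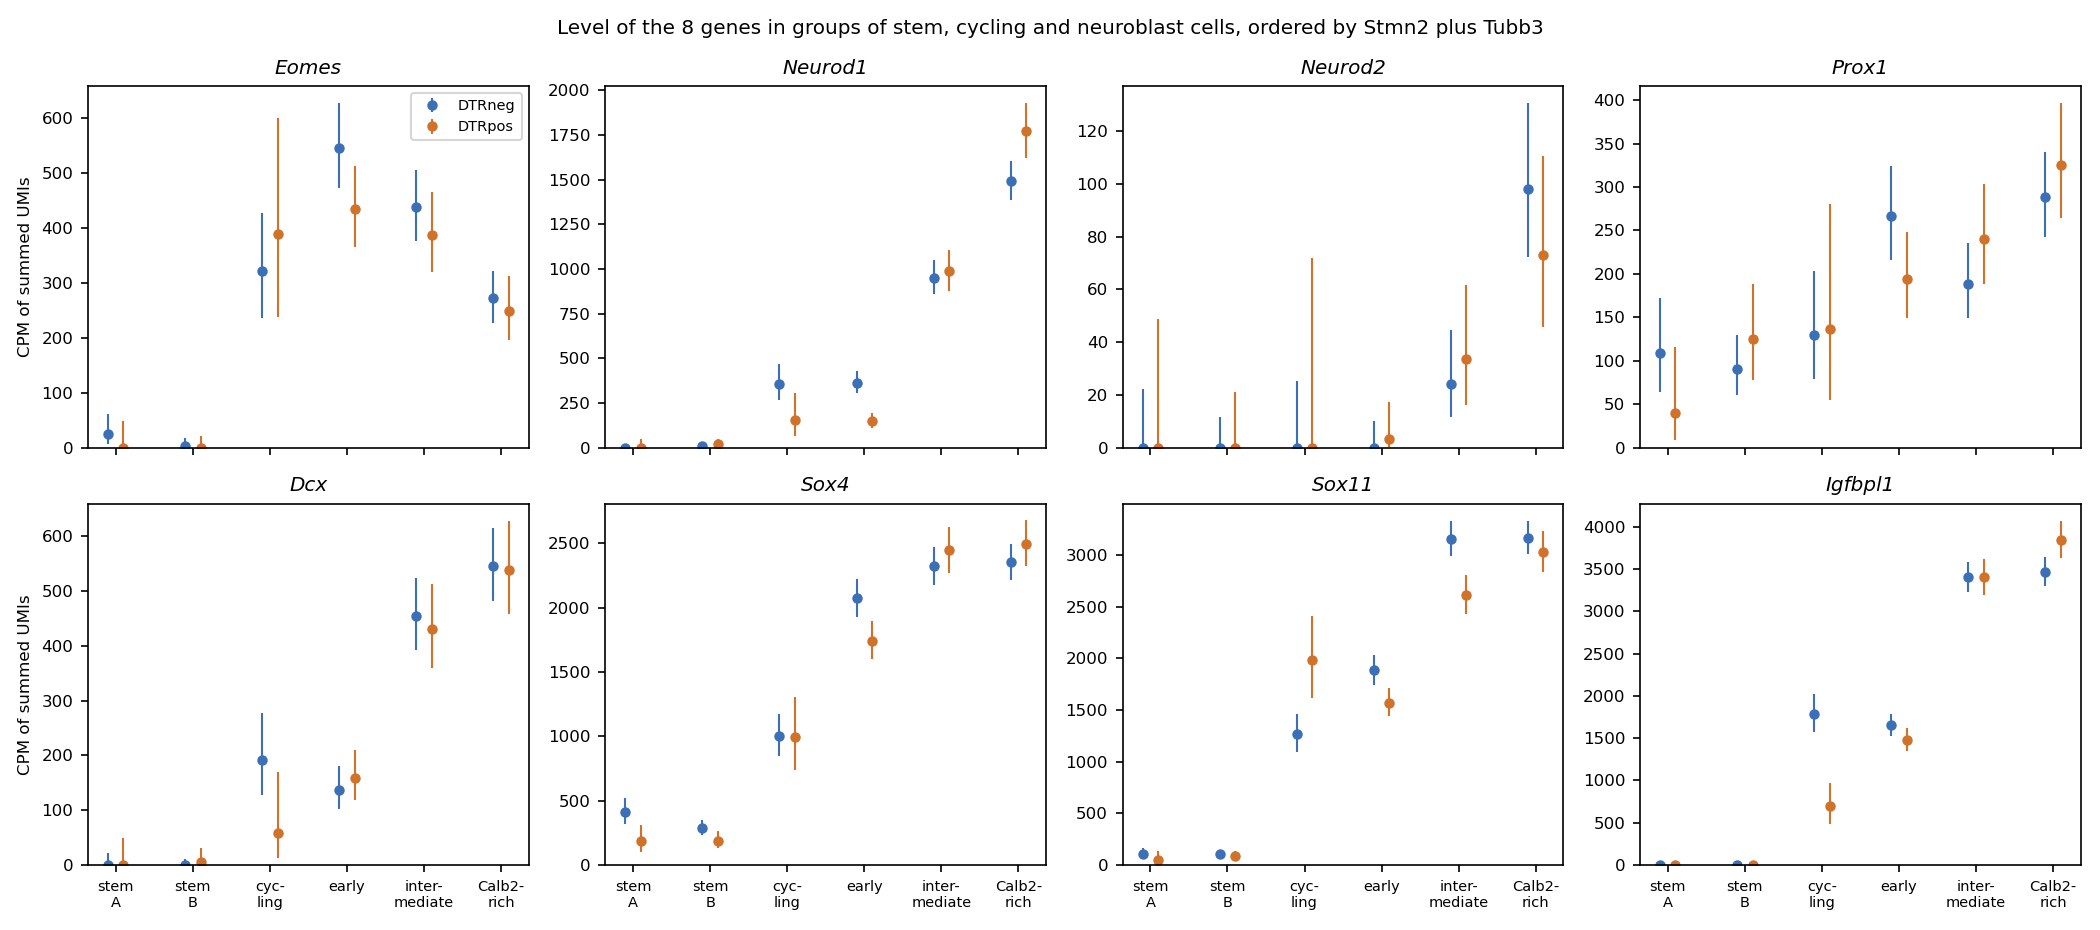
Level of the 8 genes as CPM of summed UMIs (y axis) in 6 groups of stem, cycling and neuroblast cells ordered by Stmn2 plus Tubb3 (x axis), with 1 point per library and bars for the exact 95% counting interval. Eomes is 546 and 434 CPM in the early group and 272 and 249 in the Calb2-rich group, while Neurod1, Neurod2 and Dcx are highest in the Calb2-rich group.

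Co-detection was read within thinned neuroblast-like cells. Cells with Neurod1 carried Dcx more often than cells without, 54.7% (45.2 to 64.1) against 34.2% (22.7 to 47.7) in DTRneg and 62.8% (52.2 to 72.5) against 25.8% (14.7 to 39.0) in DTRpos. The intervals were apart in DTRpos and overlapped in DTRneg. Cells with Igfbpl1 carried Neurod1 in 72.1% and 72.0%, against 2.30% and 4.63% of the few cells without Igfbpl1 (on average 16.5 and 19.4 cells). In turn, nearly every Neurod1 cell had Igfbpl1, 99.7% and 99.0%, against 73.4% and 66.2% of cells without Neurod1. Neurod1 cells were thus nested among Igfbpl1 cells.

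Detection of Neurod1 differed little between cells with and without Eomes. Cells with Eomes carried Neurod1 in 66.2% and 65.5%, and cells without in 65.0% and 61.5%. Cells with Neurod2 carried Neurod1 in 81.4% and 96.4%, against 64.1% and 60.5% without. They carried Eomes less often, 28.5% against 47.2% and 25.7% against 43.6%, but only 14.3 and 11.1 thinned cells on average had Neurod2 and the intervals overlapped. In the DTRpos library Igfbpl1 cells carried Eomes in 45.6% against 19.6% of cells without, while in DTRneg the shares were 45.9% and 44.1%. These shares come from cells of 1 library each, and a cell with more captured neuronal RNA raises all pairs together.

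**Figure D4:**
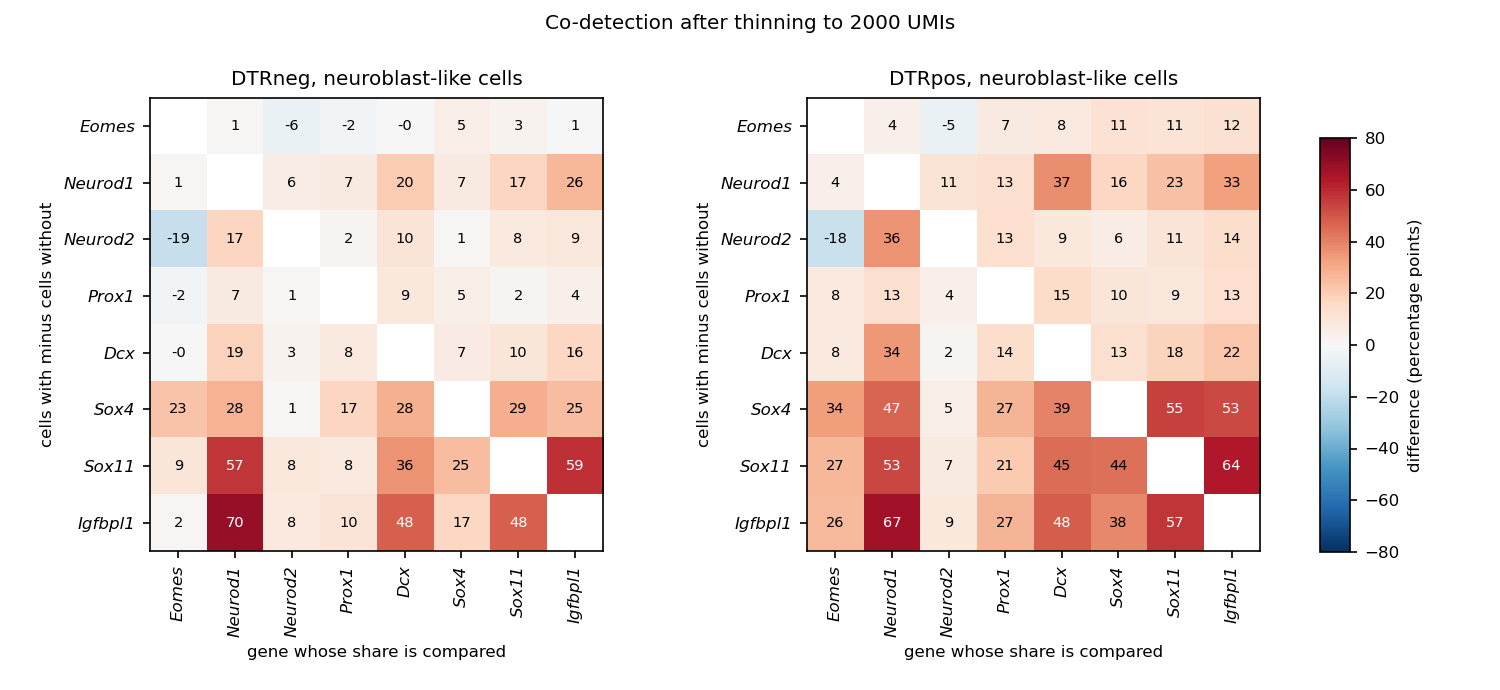
Difference in the percentage of thinned neuroblast-like cells that carry the gene on the x axis, between cells with and cells without the gene on the y axis, in percentage points, for each library. The difference for Neurod1 by Igfbpl1 is 69.8 points in DTRneg and 67.4 in DTRpos, and the difference for Eomes by Neurod2 is -18.7 and -17.9.

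Neuroblast-like cells made up 2.67% of cells in both libraries, and within them none of the 8 genes differed by 1.5-fold between DTRpos and DTRneg. That is 0 of 8, where 17.4% of the 8994 genes with at least 20 UMIs over both libraries passed 1.5-fold. The median log2 ratio of DTRpos over DTRneg was -0.04 for the 8 genes and 0.03 for all genes tested. Eomes had a log2 ratio of -0.15 (-0.36 to 0.05), Neurod1 of -0.03 (-0.16 to 0.10) and Prox1 of 0.09 (-0.16 to 0.34). Dcx had -0.05 (-0.25 to 0.15), Sox4 -0.0026 (-0.09 to 0.08) and Igfbpl1 0.01 (-0.06 to 0.08). For Sox4, Igfbpl1 and Neurod1 the counting interval was narrow over the class as a whole. The interval counts each UMI as independent, so it leaves out variation between cells. Neurod2, at -0.43 (-1.10 to 0.21), had the widest interval of the 8.

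Sox11 was the one gene of the 8 whose counting interval in neuroblast-like cells left out 0. Its level was 2763 CPM in DTRneg and 2362 in DTRpos, a log2 ratio of -0.23 (-0.30 to -0.15), which lay at percentile 25.4 of all genes tested. Over the alternatives in processing it ran from -0.25 to -0.02. By group it was -0.26 in early cells, -0.27 (-0.40 to -0.14) in intermediate cells and -0.06 (-0.19 to 0.05) in Calb2-rich cells. A difference of this size was common among all genes tested, but these include genes with far fewer UMIs than Sox11 and wider counting error. Whether it is common among genes of like count was not tested.

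Neurod1 differed between the libraries by lineage group although not over the class. In the early group it had 132 UMIs in DTRneg and 47 in DTRpos, a log2 ratio of -1.30 (-1.81 to -0.81), and was found in 23 of 47 and 14 of 42 cells. Without the 5 richest cells of each library the ratio was -1.96 (-2.91 to -1.11). Those cells held 70 of the 132 UMIs in DTRneg and 33 of the 47 in DTRpos. That is a larger part of the DTRpos UMIs, so the trim itself lowers the ratio and is no separate check. In the Calb2-rich group the Neurod1 ratio was 0.25 (0.08 to 0.41). Eomes in the early group was -0.33 (-0.65 to -0.01). In the same group Top2a, a gene of dividing cells, had 57 and 21 UMIs, Dlx1, a factor of GABAergic neuroblasts, had 1 and 14, and Meis2 had 5 and 18. The part of those cells in the Neurod1 value was not tested. The groups were made after the data had been seen, and no share of all genes past such a ratio is given for them.

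In neural stem cell-like cells 3 of the 8 genes had enough UMIs to compare, and 0 of the 3 passed 1.5-fold, where 24.9% of 5534 genes did. Prox1 had a log2 ratio of 0.09, Sox4 of -0.39 (-0.88 to 0.08) and Sox11 of -0.15. The median of the 3 was -0.15 against 0.03 for all genes. When stem barcodes were chosen instead by Riiad1 and Hopx UMIs alone, with no Pdgfra or Stmn2, there were 91 and 81 barcodes, of which 50.5% and 39.5% lay in the clustered class. That set held 26 Eomes UMIs in DTRneg and 4 in DTRpos, so the absence of Eomes belongs to the clustered stem cells and not to every Riiad1 and Hopx barcode.

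Precursor-like cells made up 10.8% of DTRneg and 16.9% of DTRpos cells. Of 6 genes compared there, 2 passed 1.5-fold, both higher in DTRpos, where 9.83% of 12962 genes passed in either direction and 4.95% were higher. These were Neurod1, with 1 and 19 UMIs and a log2 ratio of 4.13 (1.47 to 9.50), and Igfbpl1, with 3 and 24 UMIs and 2.88 (1.16 to 5.25). Both rest on 2 DTRpos cells, which held 44 of the 51 Igfbpl1, Neurod1 and Eomes UMIs of that class and library. Both cells had Pdgfra, 1 had Stmn2, and their median was 16340 UMIs against 4262 for the class. Their median doublet score was 0.127 against 0.0265. Without them 0 of 4 genes passed, but Neurod1 and Igfbpl1 fell under the minimum count and were not among the 4. The 2 cells were picked by their UMIs of these same genes. The count without them is therefore no separate check of the 2 ratios.

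The genes that precursor-like cells hold at a clear level differed little between the libraries. Sox4 was 322 CPM in DTRneg and 363 in DTRpos, a log2 ratio of 0.17 (0.06 to 0.28), and ran from 0.13 to 0.22 over the alternatives. Prox1 had 0.14, Dcx 0.08 and Sox11 0.05, each with an interval that spans 0. The median of the 6 compared was 0.16 and that of all genes 0.04. A shallow cluster of 55 and 67 cells, with a median of 1263 UMIs against 4750 in the main precursor-like cluster, is part of the class, and both calls stand without it.

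In the 48 and 30 cycling progenitor-like cells, 3 of 7 genes compared passed 1.5-fold, all lower in DTRpos, where 25% of 4715 genes passed and 12.4% were lower. Neurod1 had a log2 ratio of -0.90 (-1.64 to -0.20), Prox1 of -0.92 and Dcx of -1.09. Sox11 stood at 0.18 and Igfbpl1 at -0.53. The class mixes branches, since 50% of its DTRneg and 46.7% of its DTRpos cells had a Pdgfra UMI. Mature oligodendrocyte markers summed to 3088 CPM in DTRneg and 803.9 in DTRpos in this class, with 1 of 7 at 0 in each, and astrocyte markers to 817.5 and 484.3, with 2 and 3 of 7 at 0. Their part in the result was not tested. Within the cycling cells without Pdgfra there were 17 DTRneg cells and only 7 DTRpos cells, so few cells stand behind these values. In those cells Igfbpl1 had a log2 ratio of -1.35 (-1.90 to -0.85) and Neurod1 of -1.20 (-2.48 to -0.11), while Sox11 stood at 0.65 (0.28 to 1.003). Dcx had -1.72 (-4.08 to -0.02) on 28 and 3 UMIs, and the intervals of Eomes, Prox1 and Sox4 spanned 0. The share of all genes past 1.5-fold in this group is not given.

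Outside the neuronal lineage, Prox1 in mature oligodendrocyte-like cells had a log2 ratio of 0.27 (0.21 to 0.33). There 3 of 5 genes compared passed 1.5-fold, where 9.52% of 13924 genes did, but all 3 were at traces: Dcx at 0.65, Sox11 at -0.69 and Igfbpl1 at -1.35 in log2 ratio. In astrocyte-like cells 0 of 3 passed, where 11.3% of genes did, and Sox4 had 0.53 (0.23 to 0.82). In endothelial-like cells the 1 gene compared, Sox4, passed at 0.71 (0.23 to 1.19), where 17.6% of genes did. It had 74 and 76 UMIs, 16 of them in 1 cell, and was 0.37 (-0.21 to 0.94) without the 5 richest cells of each library.

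**Figure D5:**
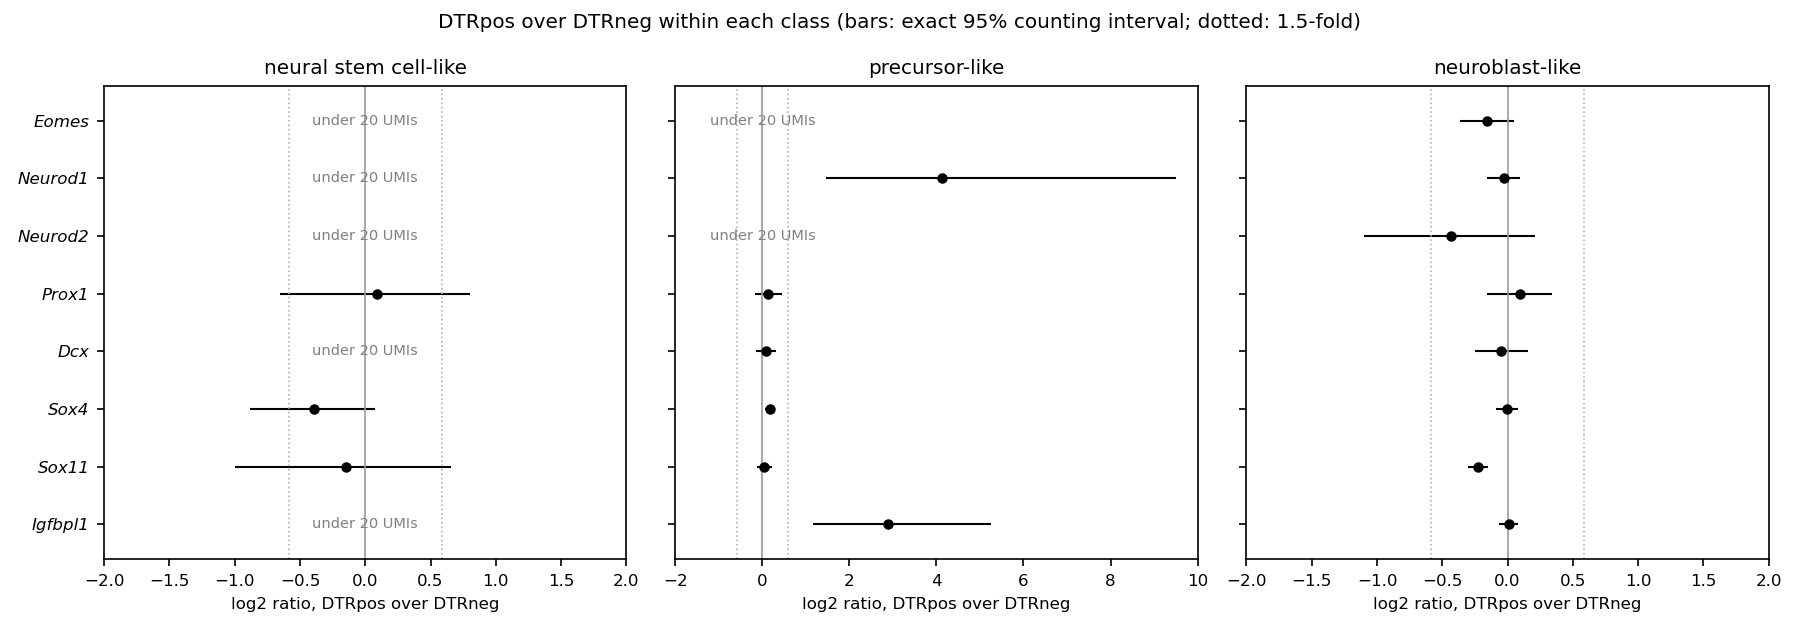
Log2 ratio of DTRpos over DTRneg (x axis) for each of the 8 genes (y axis) in each class, with bars for the exact 95% counting interval and dotted lines at 1.5-fold. In neuroblast-like cells all 8 points lie between the lines, from -0.43 for Neurod2 to 0.09 for Prox1, while in precursor-like cells Neurod1 and Igfbpl1 lie far to the right with wide bars.

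Other genes of the pathway were read from lists by role. Of 10 immature neuron genes all 10 were compared in neuroblast-like cells and 0 passed 1.5-fold, where 17.4% of the 8994 genes compared did. Their median log2 ratio was -0.10, against 0.03 for all genes compared. Stmn1, which destabilises microtubules, stood at 5445 and 5542 CPM and Nnat at 2139 and 2024. Of 8 dentate granule lineage genes 5 were compared and 0 passed, beside the same 17.4% of all genes. Zbtb20, a zinc finger factor of hippocampal identity, stood at 3270 and 3049 CPM, Calb2 at 235 and 187, Emx1 at 216 and 186, Neurod6 at 75.1 and 73.8, and Tbr1 at 62.5 and 59.2. The neuroblast-like class thus carried cortical and hippocampal factors together with the 8 genes in both libraries.

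Of 6 intermediate progenitor genes 2 passed, both lower in DTRpos, with a median of -0.47, where 8.48% of all genes of the class were lower and 8.95% higher past 1.5-fold. They were Sox21, whose interval spanned 0, and Insm1, a zinc finger factor of basal progenitors. Insm1 had 111 and 52 UMIs in 75 and 36 cells and a log2 ratio of -0.59 (-1.10 to -0.11), just past 1.5-fold. Neurog2, the proneural factor upstream of Eomes, was 107 and 77.1 CPM. Of 3 proliferation genes compared 1 passed, Top2a, lower in DTRpos at -1.44, with 50 UMIs in 19 cells and 13 in 7 cells. These stood beside the Eomes value of -0.15 in the same cells.

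Of 12 GABAergic neuroblast genes 4 were compared and 2 passed, in opposite directions, where 17.4% of all genes of the class did. Dlx1 had 7 and 23 UMIs in 5 and 6 cells, with a log2 ratio of 2.22, and Meis2 had 114 and 33 UMIs in 22 and 8 cells, with -1.29. Gad2 had 5 UMIs and 1 UMI. In the stem class 2 of 9 stem and progenitor genes compared passed: Hes5, a Notch target, at -0.61 with 392 and 139 UMIs, and Rhcg at 1.19. That is near the 24.9% of all genes of the stem class past 1.5-fold.

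Likeness of pattern was measured as the Pearson correlation of log2(CPM + 1) over 24 points, 12 classes in each of 2 libraries, among 12336 genes with at least 200 UMIs. The points share libraries and depth, so the values are a description. Eomes was most like Shisal2b (0.98), Srrm4 (0.96) and Draxin (0.96). Neurod1 was most like Srrm4 (0.92), Rbfox3 (0.92) and Neurog2 (0.91). Igfbpl1 was most like Eomes (0.95), Shisal2b (0.94) and Neurod1 (0.91), so 2 of its nearest genes are among the 8.

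The other genes had different neighbours. Sox11 was most like Elavl2 (0.94) and Elavl4 (0.93), which encode neuronal RNA-binding proteins, and Hmgb3 (0.92). Sox4 was most like Fubp1 (0.96), Ddah2 (0.94) and Apex1 (0.91), and Dcx most like Nsg2 (0.91), Chga (0.90) and Dll3 (0.90). Prox1 was most like Trim2 (0.91), Igsf8 (0.91) and 1500004A13Rik (0.89). Neurod2, itself under the UMI minimum, was most like Rbfox3 (0.87), Srrm4 (0.84) and Eomes (0.83).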

How the data were processed

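The authors deposited UMI counts for each gene in each barcode, not normalized, from Cell Ranger 6.1.0 per the file headers, on mm10 per the submitters' processing notes. Seurat is also named there. Cells with at least 500 genes and under 15% mitochondrial UMIs were kept, and Scrublet doublets (242 and 158) were removed. Cells were clustered in Scanpy 1.11.5 (2000 variable genes without the 8 genes, 30 components, Leiden resolution 1). Clusters were named from marker lists by a fold of 1.5 over the median of the other clusters, a cutoff set after seeing the data, and other names could change class values. Counts were summed per class and library and scaled to CPM. Intervals are exact Poisson (levels), Clopper-Pearson (shares) and conditional binomial (ratios), all at 95%. A gene was compared with at least 20 UMIs over both libraries. Equal-depth shares used cells thinned to 2000 UMIs, leaving out shallower cells (7 and 3 neuroblast-like, 63 and 86 precursor-like), averaged over 50 draws. The ratio code was tested on simulated data. Genes from the lists were named if among the 4 highest in neuroblast-like cells or past 1.5-fold with an interval leaving out 0, and the 3 nearest genes were named for likeness. The members and lists were chosen with earlier results of these data known. Alternatives changed clustering, gating, doublets, filters, depth, weighting, scaling and rich cells. The other 6 samples, meningeal T cells, were not analysed here.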

Additional observations from a re-analysis of the deposited data

How the results depend on the processing

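No paired analysis was possible because each genotype has 1 library, and for the same reason no replicate could be left out. In neuroblast-like cells the median log2 ratio of the 8 genes (-0.04) was -0.081 with the 8 genes kept in the clustering, 0.091 for barcodes gated on Igfbpl1 and Stmn2 (7 genes), -0.087 at Leiden resolution 2, 0.0029 when thinned, and -0.10 once the 5 richest cells were removed. The count past 1.5-fold there was 0, and 1 with doublets kept or without the 5 richest cells, Neurod2 in both (-0.62 and -0.72). In stem cells the count was 1 of 5 under gating, Eomes at -2.35. In precursor-like cells the count was 1 of 5 under gating (Igfbpl1 at 1.87). Neurod1 fell under the minimum count under gating too, so that count does not cover it. The count was 0 of 4 under 3 others: at 2000 UMIs per cell, with the 5 richest cells left out, and with the 2 mixed cells left out (chosen after seeing the data). Under these 3 Neurod1 and Igfbpl1 fell under the minimum count and were not compared, so the 0 does not cover them. The precursor-like median (0.16 over 6 genes) was 0.050, 0.045 and 0.040 over the 4 genes left. With no minimum count 3 of 7 passed, Eomes at 2.88 being added. The cause of the other shifts was not tested. These alternatives covered the stem, precursor-like and neuroblast-like classes only. The called ratios there, precursor-like Neurod1 and Igfbpl1, kept their sign in the settings where they could be compared. Calls in the other classes were not varied, except that endothelial-like Sox4 was also read without its richest cells. Depth limits Neurod2 throughout and Eomes, Neurod1 and Igfbpl1 outside the neuroblast-like and cycling classes. Of the alternative values for single genes, 150 ratios stayed within the counting interval and 7 moved. Of the shares of cells, 198 stayed and 40 moved, and of the co-detection differences, 497 stayed and 35 moved.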
